A study of Mus musculus with 32 samples.

Results

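Regulatory T cells (Treg) were sequenced from 2 organs of the same kind of mouse, with and without CCl4, and the comparison here asks for which genes the response of Treg to CCl4 depended on the organ. For each gene the CCl4 effect in liver Treg (CCl4 against control) was set against the CCl4 effect in spleen Treg, and the difference between both effects was tested. The comparison rests on 16 of the 32 libraries in the series. These are 3 control and 5 CCl4 libraries of liver Treg, and 3 control and 5 CCl4 libraries of spleen Treg. All came from male C57BL/6 mice of the genotype Foxp3GFP, in which green fluorescence reports Foxp3, and Treg were sorted by their surface TCRb and CD4 and by Foxp3. The other 16 libraries hold the Foxp3-negative CD4 T cells (Tconv) of both organs and served only for comparison and for the shared estimate of spread. Age, the dose and duration of CCl4, and how many animals stand behind a library were not stated in these sources. Because nothing says that the libraries of a group came from separate animals, p-values measure the spread between samples, which may be technical. A diet named in the protocol belongs to none of these samples.

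Treg are CD4 T cells that restrain immune responses, and Foxp3 is the transcription factor that defines them. Treg of blood and lymphoid organs mostly recirculate, with a transcriptome that includes Tcf7 and Ccr7. Treg that settle in tissues instead use Gata3, Il1rl1 and Areg, the last of which encodes amphiregulin, a growth factor for epithelial and stromal cells. CCl4 is a solvent that liver enzymes convert into a radical which kills hepatocytes; repeated doses are used in mice as a model of liver fibrosis. The spleen is a lymphoid organ and is not the main site of injury by CCl4.

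The sort could be checked on the markers of Treg and T cells. Foxp3 lay between 909 and 1176 CPM (the count's share of the library, scaled to a common total and for library composition) in all 16 Treg libraries, and its CCl4 effect did not pass the test in either organ. Il2ra, the receptor chain for interleukin 2, lay between 337 and 727 CPM, Cd4 between 495 and 685 CPM, and Cd3e between 605 and 995 CPM. Library totals ran from 24513124 to 62485064 estimated counts. Some libraries stood apart. Fos, an immediate early gene, was at 843 CPM in spleen Treg control 1 but at 25.2 and 22.6 CPM in spleen Treg controls 2 and 3. Digestive enzyme transcripts of the exocrine pancreas summed to 1656 CPM in liver Treg control 1, and spleen Treg CCl4 libraries 2 to 5 carried neutrophil transcripts. The fits without these libraries that were run left out spleen controls 2 and 3 of both cell types together, or 1 Treg library at a time.

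The difference between both CCl4 effects passed the test for 940 of 17159 genes (5.48% of those tested; edgeR's quasi-likelihood test with Benjamini-Hochberg adjustment, adjusted p under 0.05, as for every adjusted p here). For 346 genes (2.02%) the effect was higher in liver than in spleen, and for 594 (3.46%) it was lower. Where called genes are described below as higher or lower in liver, the CCl4 effect is meant and not the level. The difference exceeded 2-fold for 134 of the 346 and 194 of the 594, and exceeded 4-fold for 38 and 65. The median log2 difference over all genes was 0.010. Most of these genes code for protein (321 and 582), and 306 and 523 had a mean of at least 5 CPM over the Treg libraries. In simulated data of 16761 genes, 65% of 2-fold and 95% of 3-fold differences were recovered by the same test, so genes outside the 940 cannot be read as responding alike.

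The CCl4 effect itself was called for 2555 genes in liver Treg (14.9%), of which 1295 rose (7.55%) and 1260 fell (7.34%). In spleen Treg it was called for 202 genes (1.18%), of which 130 rose (0.758%) and 72 fell (0.42%). That spleen count was 9 and 10 without spleen Treg control 2 and 3, 342 without control 1, 130 and 83 without spleen CCl4 libraries 2 and 4, and 0 in edgeR's fit without the 4 spleen control libraries numbered 2 and 3 (2 of Treg and 2 of Tconv), with 1321 genes at an unadjusted p under 0.05. A split by which organ was called therefore rests on spleen controls 2 and 3. These contrasts share libraries with their difference, so the split that follows is a description. Among the 346 genes with the higher effect in liver, the CCl4 effect was called in liver only for 298, in spleen only for 11, in both for 5 and in neither for 32. Among the 594 with the lower effect, it was called in liver only for 484, in spleen only for 39, in both for 7 and in neither for 64. The median fitted effects of the 346 genes were 0.717 in liver and -0.0857 in spleen on the log2 scale, and those of the 594 were -0.609 and 0.118. The fitted effect was the larger in size in liver for 309 of 346 and 490 of 594 genes, and in spleen for 37 and 104. Of the 346, 218 had a positive effect in liver and a negative one in spleen, and of the 594, 399 had the opposite arrangement, although few of these genes passed the test in both organs.

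The count of 940 depended on the spleen controls. It was 573 without spleen Treg control 3. Without those 4 spleen controls, 330 of 18645 genes were called (1.77%), 116 higher and 214 lower, and of the 940 genes 103 higher and 187 lower were among them. All 346 and all 594 genes kept their sign in that fit, with median log2 differences of 0.862 and -0.756. Leaving out any 1 of the 16 Treg libraries retained 419 genes as called in every one of the 16 fits, 134 higher and 285 lower.

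**Figure D1:**
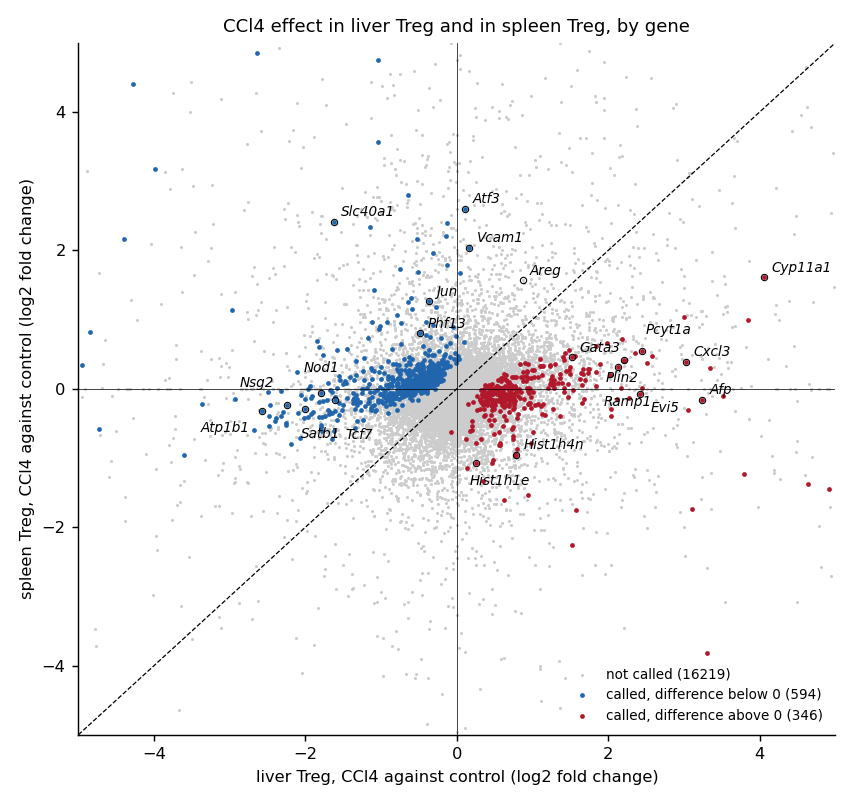
Fitted log2 fold change of CCl4 against control in liver Treg (x axis) and spleen Treg (y axis) for each gene tested. Red and blue points are genes whose difference between the effects was called above or below 0, the dashed line marks equal effects, and 273 genes with an effect beyond 5 on either axis, 40 of them called, are not drawn. Called points spread mainly along the liver axis, Atf3 and Vcam1 lie along the spleen axis, and Slc40a1 lies at -1.62 in liver and 2.41 in spleen.

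The clearest group was that of the naive and recirculating T cell genes, which fell with CCl4 in liver Treg and much less, or not detectably, in spleen Treg. Of 20 genes on this list, 16 had a called difference and all 16 were lower in liver, against 3.46% of all genes. The list, like the others, was chosen with earlier results of these data known. Its share is therefore a description and not separate support. The median log2 difference of the list was -1.42, from a median effect of -1.59 in liver and -0.25 in spleen. In liver Treg 19 of the 20 fell with CCl4 and in spleen Treg 2 fell, against 7.34% and 0.42% of all genes. The summed level of the list was 6042 to 6601 CPM in liver controls and 2473 to 3188 CPM in liver CCl4 libraries, and 5539 to 5798 CPM in spleen controls and 4128 to 5057 CPM in spleen CCl4 libraries. In these bulk samples, fewer cells that express a gene and less of its RNA per cell cannot be told apart.

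Tcf7, the transcription factor TCF1 of naive and memory T cells, had the smallest adjusted p of all named genes. It was at 245, 226 and 235 CPM in the liver Treg controls and at 86.1, 84, 72.1, 67 and 75.9 CPM in the liver Treg CCl4 libraries. In spleen Treg it was at 540, 550 and 504 CPM in controls and 524, 493, 437, 457 and 470 CPM with CCl4. Every liver CCl4 library lay far below every liver control, whereas in spleen the groups overlapped. The log2 effects were -1.61 in liver and -0.16 in spleen, a difference of -1.45 (SE 0.13, adjusted p = 5.44e-08).

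Satb1, a chromatin organizer that acts in T cell development, was at 422, 395 and 478 CPM in liver controls and 109, 126, 120, 74.1 and 108 CPM in liver CCl4 libraries. In spleen its levels were 338, 360 and 330 CPM in controls and 291, 305, 276, 233 and 293 CPM with CCl4. Liver Treg thus began above spleen Treg for this gene and ended below, with a log2 difference of -1.71 (SE 0.21, adjusted p = 1.12e-05). Evl, an actin regulator of the Ena/VASP family, was at 88.4, 88.2 and 111 CPM in liver controls and 28.8, 30.1, 30.3, 27.3 and 30.6 CPM in liver CCl4 libraries, against 276, 298 and 289 CPM and 248, 223, 218, 220 and 252 CPM in spleen. The groups stood apart in both organs, but the log2 effect was -1.71 in liver and -0.31 in spleen, and their difference was -1.40 (SE 0.13, adjusted p = 6.82e-08).

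Genes for homing and exit from tissue were on the same list. Ccr7, the receptor that leads T cells into lymph nodes, ran from 1077 to 1369 CPM in liver controls and from 332 to 493 CPM with CCl4, and from 375 to 427 CPM and 236 to 392 CPM in spleen (log2 difference -1.18, SE 0.25, adjusted p = 0.00382). S1pr1, the receptor for exit into blood and lymph, fell in spleen as well, with effects of -1.32 in liver and -0.47 in spleen and a difference of -0.85 (SE 0.17, adjusted p = 0.00218). Klf2, a transcription factor that drives S1pr1, differed by -0.60 (SE 0.13, adjusted p = 0.00544). Other called members included Klf3, Bach2, Foxp1, Ly6c1, Dapl1, Actn1, Treml2, Igfbp4 and Nsg2, with log2 differences between -0.88 for Foxp1 and -2.01 for Nsg2.

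The 4 members without a called difference were not of 1 kind. Lef1, the partner of Tcf7 among HMG-box factors, fell in liver by 0.74 on the log2 scale, and its difference was -0.55 (adjusted p = 0.102). Id3 fell in both organs, by 0.82 in liver and 0.64 in spleen. Ly6c2 had a log2 difference of -1.44 at 0.799 to 6.24 CPM (adjusted p = 0.142), and Il7r, the interleukin 7 receptor, had a difference of 0.28 (adjusted p = 0.46). Without the 4 spleen controls, 9 of the 20 were called, all lower, and the list's median was -1.38.

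Several genes outside that list followed the same course. Ms4a4b, a membrane protein of T cells, was at 649, 637 and 622 CPM in liver controls and 225, 229, 212, 163 and 181 CPM in liver CCl4 libraries. In spleen it was at 1209, 1070 and 1241 CPM and at 941, 1010, 865, 757 and 1039 CPM. The CCl4 libraries lay below the controls in both organs, by more in liver (log2 difference -1.31, SE 0.13, adjusted p = 5.8e-07). Nod1, a cytosolic sensor of bacterial peptidoglycan, was at 69.1, 91.6 and 85.8 CPM in liver controls and 22.6, 22.2, 20.9, 28.8 and 24.2 CPM with CCl4, and spleen Treg held it at 161, 169 and 154 CPM and 187, 154, 159, 147 and 125 CPM. The spleen groups overlapped for Nod1, and its difference was -1.72 (SE 0.19, adjusted p = 1.74e-06). Dtx1, a Notch pathway ubiquitin ligase, was at 54.9, 58.2 and 103 CPM in liver controls, at 20.4 to 25.1 CPM in liver CCl4 libraries, and between 320 and 374 CPM in all spleen Treg libraries (log2 difference -1.61, SE 0.19, adjusted p = 6.36e-06).

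Among the largest negative differences, most again came from liver. Atp1b1, a subunit of the sodium pump, was at 15.2, 10.8 and 16.1 CPM in liver controls and 1.52, 4.02, 2.65, 1.02 and 2.65 CPM with CCl4, against 30.4 to 33.4 CPM and 23.4 to 28.3 CPM in spleen (log2 difference -2.26, SE 0.32, adjusted p = 7.14e-05). Igfbp4, an IGF binding protein, differed by -1.98 (SE 0.27, adjusted p = 2.89e-05) and St8sia1, the GD3 ganglioside synthase, by -1.97 (SE 0.30, adjusted p = 0.000142). Ehd3, an endosomal trafficking protein, differed by -1.20 (SE 0.14, adjusted p = 4.88e-06). Gabrr2, Zbtb18, Arhgap20 and Serpina3f had differences between -2.36 and -2.08; Arhgap20 stayed called in 12 of the 16 fits with 1 library left out and Serpina3f in 15. Without the 4 spleen controls, Atp1b1, Igfbp4, St8sia1 and Ehd3 were still called, and Gabrr2, Zbtb18, Arhgap20 and Serpina3f were not, at adjusted p of 0.0539, 0.114, 0.179 and 0.153.

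**Figure D2:**
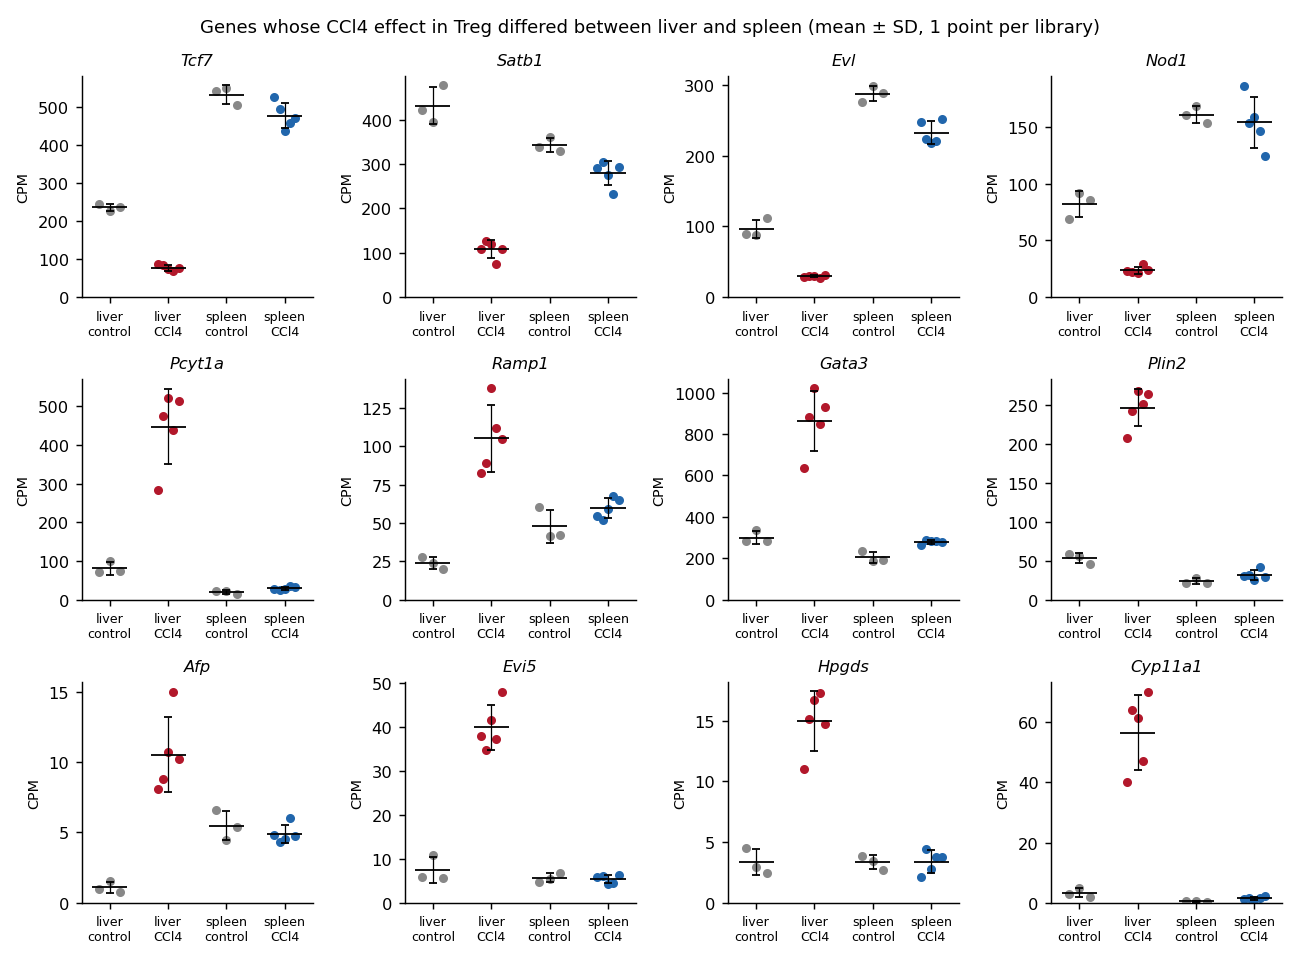
CPM of 12 genes with a called difference, 1 point per library, with the mean (horizontal line) and SD (bar) of 3 control and 5 CCl4 libraries in each organ. The top row shows Tcf7, Satb1, Evl and Nod1, which dropped with CCl4 in liver, and the other rows show genes that rose in liver, such as Pcyt1a from at most 101 to at least 284 CPM, with a smaller or no visible shift in spleen.

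The genes with the higher CCl4 effect in liver were more varied in function. Afp, the fetal serum protein alpha-fetoprotein, had the largest positive difference among the named genes. It was at 1.01, 1.54 and 0.741 CPM in liver Treg controls and 8.07, 8.78, 10.7, 15 and 10.2 CPM in liver CCl4 libraries, and at 6.58, 4.5 and 5.37 CPM and 4.85, 4.3, 4.52, 6.03 and 4.78 CPM in spleen. Liver Treg therefore started below spleen Treg and ended above, while the spleen groups overlapped, and the log2 difference was 3.40 (SE 0.40, adjusted p = 6.36e-06). Afp is known from liver cells, so hepatocyte transcripts are given beside it. The 18 hepatocyte markers summed to 157 to 237 CPM in liver controls and 157 to 586 CPM in liver CCl4 libraries, and to 6.99 to 11.3 and 21.8 to 32.5 CPM in spleen. Trf, transferrin, made up 95 to 127 CPM of the sums in liver controls and 148 to 267 CPM with CCl4. In spleen it made up 5.68 to 8.66 and 18.4 to 29.4 CPM. The sums therefore do not show the course of the other markers. By the test 2 of the 18 fell in liver and 0 rose, against 7.34% and 7.55% of all genes. Cyp3a11 and Cps1 were at or near 0 in most spleen libraries. None of the 18 had a called difference. Alb, the albumin gene, was at 27.6, 14 and 11.6 CPM in liver controls and 2.45, 12.5, 101, 1.07 and 5.49 CPM in liver CCl4 libraries 1 to 5. Afp was highest in library 4, in which Alb was lowest. The part of hepatocyte RNA in the Afp result was not tested.

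Pcyt1a, the rate-limiting enzyme of phosphatidylcholine synthesis, was at 70.9, 101 and 73.6 CPM in liver controls and 284, 475, 522, 439 and 515 CPM in liver CCl4 libraries. In spleen it was at 24.1, 22.5 and 14.7 CPM and at 29.1, 25.7, 27, 34.7 and 33 CPM. The groups did not overlap in either organ, but the log2 effect was 2.45 in liver and 0.55 in spleen (difference 1.90, SE 0.24, adjusted p = 1.12e-05). Ramp1, the partner that makes the receptor for the neuropeptide CGRP, was at 27.8, 24.3 and 19.9 CPM in liver controls and 82.7, 88.9, 138, 112 and 105 CPM with CCl4, and at 60.2, 41.6 and 42 CPM and 54.7, 52.1, 59, 67.7 and 65.3 CPM in spleen. Here too liver Treg passed from below to above spleen Treg, and the difference was 1.81 (SE 0.21, adjusted p = 6.36e-06).

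Enzymes of lipid mediators and steroids were among the largest differences. Hpgds, the prostaglandin D2 synthase of blood cells, was at 4.53, 2.94 and 2.49 CPM in liver controls and 11, 15.1, 16.7, 17.3 and 14.7 CPM with CCl4, and between 2.09 and 4.45 CPM in all spleen libraries (log2 difference 2.15, SE 0.34, adjusted p = 0.000252). Cyp11a1, which makes pregnenolone from cholesterol, was at 3.06, 5.04 and 1.99 CPM in liver controls and 40.1, 64.2, 61.4, 47 and 69.9 CPM with CCl4. In spleen it was at 0.417, 0.648 and 0.364 CPM and 1.35, 1.41, 0.993, 1.59 and 2.2 CPM. Cyp11a1 rose in both organs without overlap, and more in liver (log2 effects 4.06 and 1.62, difference 2.45, SE 0.48, adjusted p = 0.0019), although without the 4 spleen controls the adjusted p was 0.118. Cxcl3, a chemokine that draws neutrophils, was at 2.26 to 3.62 CPM in liver controls, 13.8 to 35.9 CPM in liver CCl4 libraries and 0.314 to 1.2 CPM in spleen, with a difference of 2.63 (SE 0.52, adjusted p = 0.00222) that was 2.49 without the 4 spleen controls (adjusted p = 0.0516).

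The remaining large positive differences had no shared function. Evi5, a regulator of Rab GTPases and cell division, was at 5.59 to 10.9 CPM in liver controls and 34.8 to 48 CPM with CCl4, and at 4.34 to 6.87 CPM in spleen (log2 difference 2.49, SE 0.40, adjusted p = 0.000301). Specc1 differed by 2.42 (SE 0.35, adjusted p = 7.48e-05) and Nckap5 by 1.97 (SE 0.39, adjusted p = 0.00206). Nrn1, neuritin, a membrane protein that anergic T cells and Treg express, was at 32.3 to 41.5 CPM in liver controls and 173 to 281 CPM with CCl4, and at 91.4 to 115 CPM and 111 to 168 CPM in spleen (difference 2.10, SE 0.34, adjusted p = 0.00028). Camk2n1, an inhibitor of CaMKII, differed by 2.26 (adjusted p = 0.00691). Pln, phospholamban, and Cpe, a carboxypeptidase of peptide hormones, had differences of 2.43 and 1.85 that were called in only 10 and 11 of the 16 fits with 1 library left out. Of the 12 largest positive differences, Afp, Evi5, Specc1, Hpgds, Nrn1, Nckap5 and Pcyt1a were also called without the 4 spleen controls.

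Most genes of the tissue Treg programme rose with CCl4 in liver, and few showed a difference between the organs. Of 20 list members, 12 rose in liver Treg and 6 rose in spleen Treg, against 7.55% and 0.758% of all genes. None fell in either organ, against 7.34% and 0.42%. Only Gata3 and Rbpj had a called difference, both higher in liver, against 2.02% of all genes, and the list's median difference was 0.22. Gata3, the transcription factor of type 2 and tissue-resident T cells, was at 284, 336 and 282 CPM in liver controls and 634, 882, 1023, 850 and 930 CPM with CCl4. In spleen it was at 235, 187 and 193 CPM and at 266, 289, 283, 284 and 278 CPM. The groups stood apart in both organs, and the effects were 1.52 in liver and 0.45 in spleen (difference 1.07, SE 0.16, adjusted p = 0.000142). Rbpj, the DNA-binding partner of Notch, was at 75.2, 80 and 81.4 CPM in liver controls and 201, 187, 262, 271 and 329 CPM with CCl4, and at 55.4 to 59 and 62.3 to 71.7 CPM in spleen (difference 1.38, SE 0.24, adjusted p = 0.00065).

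Areg had no called difference between the organs. It was at 77.4, 91.4 and 47.8 CPM in liver Treg controls and 101, 125, 134, 170 and 130 CPM in liver CCl4 libraries, and at 5.71, 1.89 and 1.24 CPM and 7.48, 7.99, 10.3, 8.96 and 7.55 CPM in spleen. CCl4 and control did not overlap in either organ, and liver controls lay above every spleen library. The log2 effects were 0.87 in liver (adjusted p = 0.103) and 1.56 in spleen (adjusted p = 0.0503), with a difference of -0.70 (SE 0.52, adjusted p = 0.514). A two-sided exact permutation test of the difference in mean log2 CPM gave -0.92 with p = 0.336 over 3136 splits. Because treatment was permuted within each organ, this test assumes no CCl4 effect in either organ. Its p-values here therefore cannot decide whether both effects were equal. The sign depended on the scale and on the spleen controls. On the linear scale the CCl4 increase was 54 CPM larger in liver (exact permutation p = 0.0494). Without spleen Treg controls 2 and 3, the log2 value was 0.34 (exact permutation p = 0.533).

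Id2, Ccr8 and Pparg rose in both organs by the test, the spleen calls resting on the spleen controls. Id2, an inhibitor of E proteins, rose in liver (log2 effect 1.80) and in spleen (1.11), with a difference of 0.69 (SE 0.25, adjusted p = 0.112, and 0.0075 without the 4 spleen controls). Ccr8, a chemokine receptor of tissue Treg, had effects of 1.71 and 1.09, both called, and a difference of 0.62 (SE 0.31, adjusted p = 0.274). Pparg, the factor of adipose tissue Treg, rose by 2.59 in liver and 2.23 in spleen on the log2 scale, from 13.4 to 19.1 CPM up to 65 to 113 CPM in liver and from 0.982 to 1.66 CPM up to 3.41 to 9.06 CPM in spleen. Il1rl1, the interleukin 33 receptor, and Klrg1, an inhibitory receptor of mature effector cells, rose in liver only by the test. In spleen the groups nevertheless stood apart, at 19.8 to 29.9 and 32.7 to 45.1 CPM for Il1rl1. For Klrg1 the spleen levels were 59 to 95 and 110 to 160 CPM. Their differences were 0.25 (SE 0.38, adjusted p = 0.803) and 0.69 (SE 0.59, adjusted p = 0.592), neither of them called. Il10, an anti-inflammatory cytokine, differed by -0.28 (SE 0.85, adjusted p = 0.919) and Penk, proenkephalin, by 1.03 (SE 0.47, adjusted p = 0.222).

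**Figure D3:**
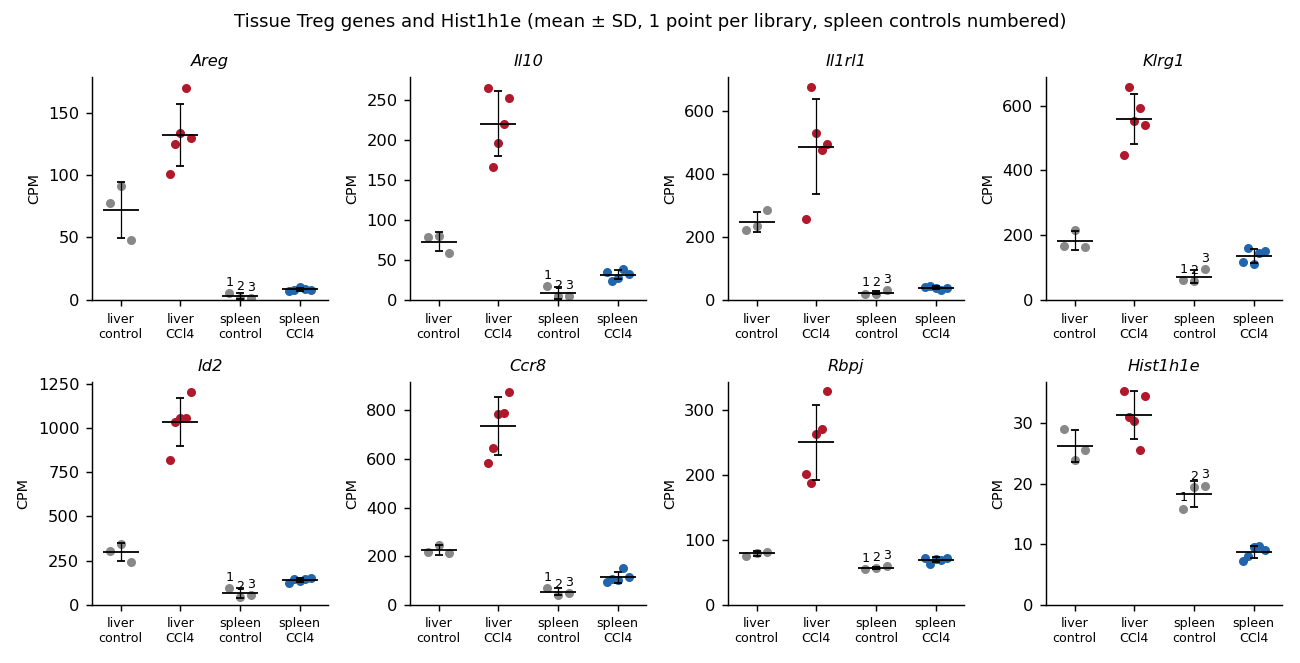
CPM of 7 tissue Treg genes and Hist1h1e, 1 point per library, with mean and SD, and the spleen controls numbered 1 to 3. Areg, Il10, Klrg1, Id2 and Ccr8 are higher with CCl4 in both organs, Rbpj chiefly in liver, and Hist1h1e is lower with CCl4 in spleen, with overlapping liver groups.

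Among genes that define Treg or mark activation, few had a called difference between the organs. Of 15 Treg identity genes, 1 had a called difference, against 5.48% of all genes. This was Gpr83, an orphan receptor typical of resting Treg, at 85, 82.3 and 116 CPM in liver controls and 35, 26.8, 25.2, 26.5 and 30.6 CPM with CCl4, and between 301 and 375 CPM in spleen (log2 difference -1.54, SE 0.22, adjusted p = 6.18e-05). Foxp3 differed by 0.10 (SE 0.20, adjusted p = 0.854) and Ctla4, the checkpoint receptor, by -0.17 (SE 0.23, adjusted p = 0.779). Of 16 activation and checkpoint receptors none had a called difference, while 7 rose in liver and 2 in spleen, against 7.55% and 0.758% of all genes. Tnfrsf9, the costimulatory receptor 4-1BB, rose in both, by 0.90 and 0.73 on the log2 scale, with a difference of 0.17 (SE 0.22). Pdcd1, the inhibitory receptor PD-1, differed by 1.16 (SE 0.40, adjusted p = 0.0891).

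Type 2 genes were low in most libraries. Of 10 measured, only Cyp11a1 had a called difference, against 5.48% of all genes, and the list's median of 1.77 includes genes near 0. Il5 was at 1.14, 2.51 and 1.25 CPM in liver controls and 3.67, 22.7, 22.3, 23.8 and 23.4 CPM in liver CCl4 libraries, and at most 0.125 CPM in spleen. It rose in liver, but with spleen at that floor the difference could not be estimated (adjusted p = 0.809). Il17rb, the interleukin 25 receptor, was at 10.7 to 11.2 CPM in liver controls and 17.2 to 51.8 CPM with CCl4 and differed by 1.27 (SE 0.47, adjusted p = 0.117).

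Interferon-induced genes fell with CCl4 in liver Treg, and none was called in spleen Treg. Of 25 type I interferon genes, 10 had a called difference and all were lower in liver, against 3.46% of all genes, with a list median of -0.61 (liver -0.48, spleen 0.08). In liver 13 of the 25 fell and 1 rose, against 7.34% and 7.55% of all genes. Oas3, a sensor of double-stranded RNA, was at 27.5, 32 and 34 CPM in liver controls and 14.9, 15, 12.1, 14.8 and 14.8 CPM with CCl4, and at 24.2 to 29.8 CPM and 25.7 to 35.3 CPM in spleen. The liver groups were apart and the spleen groups overlapped (log2 difference -1.39, SE 0.22, adjusted p = 0.000252). Irf7, the interferon-amplifying transcription factor, was at 87.8, 110 and 114 CPM in liver controls and 59.3, 45.5, 57.7, 60.2 and 48.2 CPM with CCl4, and at 78 to 98.4 CPM in all spleen libraries (difference -0.99, SE 0.16, adjusted p = 0.000282). Usp18, which curbs interferon receptor signalling, differed by -1.23 (adjusted p = 0.000861) and Zbp1, a nucleic acid sensor, by -0.77 (adjusted p = 0.000672). Ifit3, Oasl2, Stat2, Trim30a and Cmpk2 were also called, with adjusted p between 0.00898 and 0.0415.

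The guanylate binding proteins, GTPases induced by interferon gamma, behaved similarly. Of 10 measured, 5 had a called difference (Gbp2, Gbp4, Gbp6, Gbp9 and Gbp11), all lower in liver, against 3.46% of all genes, and the list's median was -0.68. Gbp2 was at 126, 197 and 140 CPM in liver controls and 94.5, 87.9, 69.9, 87 and 78 CPM with CCl4, and at 172 to 219 CPM in all spleen libraries (log2 difference -0.95, SE 0.19, adjusted p = 0.00315). These are near-identical paralogs, so the split of reads between them is uncertain. Without the 4 spleen controls, 5 interferon genes and 1 guanylate binding protein were called, at medians of -0.60 and -0.71.

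Immediate early genes, which are switched on within minutes of a stimulus, had the larger median effect in spleen (1.24 on the log2 scale, and 0.20 in liver), where the control libraries disagreed. Of 28 measured, 6 had a called difference, against 3.46% of all genes called lower, and the median was -0.89. In all 6 (Jun, Ier2, Btg2, Rhob, Atf3 and Rasd1) the CCl4 effect was lower in liver than in spleen. In spleen Treg 8 rose with CCl4 and none fell, against 0.758% and 0.42% of all genes. In liver Treg 4 rose and 2 fell, against 7.55% and 7.34%. The list summed to 3437 to 12699 CPM in the 3 spleen controls and 14386 to 16012 CPM with CCl4. In liver it summed to 13851 to 15916 CPM in controls and 16283 to 19965 CPM with CCl4, so that the sums stood apart in both organs. Jun, a subunit of the AP-1 factor, was at 1155, 1296 and 939 CPM in liver controls and 769, 744, 851, 995 and 1033 CPM with CCl4. In spleen it was at 737, 263 and 196 CPM in controls 1, 2 and 3 and at 1046, 899, 990, 894 and 970 CPM with CCl4. Spleen control 1 thus lay near the CCl4 libraries and controls 2 and 3 far below (log2 difference -1.63, SE 0.43, adjusted p = 0.0204, called in 13 of the 16 fits with 1 library left out).

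Fos showed that spread most. It was at 702, 703 and 589 CPM in liver controls, 563, 443, 418, 582 and 529 CPM in liver CCl4 libraries, and 925, 797, 856, 957 and 1116 CPM in spleen CCl4 libraries, and spleen control 1 fell within the last range. Its log2 difference of -2.04 had an SE of 1.13 (adjusted p = 0.337) and was -0.54 without the 4 spleen controls. Ier2, a nuclear regulator, was at 550, 239 and 215 CPM in spleen controls and 614 to 676 CPM with CCl4, and at 408 to 485 CPM and 284 to 380 CPM in liver (difference -1.38, SE 0.33, adjusted p = 0.0107). Atf3, a stress-induced factor, was at 2.41, 0.403 and 0.0728 CPM in spleen controls and 3.98 to 6.34 CPM with CCl4, while liver Treg held 28.9 to 53.6 CPM with or without CCl4 (difference -2.49, SE 0.67, adjusted p = 0.0237, and -1.05 with adjusted p = 0.271 without the 4 spleen controls). Btg2, an antiproliferative cofactor of mRNA decay, was the only 1 of the 6 that fell in liver by the test, being at 725, 655 and 640 CPM in controls and 426 to 589 CPM with CCl4, and it stayed called in all 16 fits with 1 library left out (difference -0.77, SE 0.18, adjusted p = 0.00736), but not without the 4 spleen controls (adjusted p = 0.303). In that fit Jun and Ier2 were still called (adjusted p = 0.0429 and 0.049), 1 member of the list was higher and 3 lower, and the median was -0.03.

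Dusp1 and Ppp1r15a, which encode a phosphatase of MAP kinases and a regulatory subunit of the phosphatase that restores translation, show the same break. Dusp1 was at 1315, 107 and 97.1 CPM in spleen controls and 1428 to 1733 CPM with CCl4, and in liver it lay at 1354 to 1525 CPM and 2807 to 3222 CPM. Its log2 difference was -0.58 (SE 0.87, adjusted p = 0.799) with all libraries and 0.79 (adjusted p = 0.00819) without the 4 spleen controls, so its sign turned. Ppp1r15a was at 1176, 122 and 97.8 CPM in spleen controls, 1383 to 1627 CPM in spleen CCl4 libraries and 1142 to 1611 CPM in liver (difference -1.94, SE 0.74, adjusted p = 0.129).

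Promoter sequences were searched for the letters of known transcription factor binding motifs. The windows are the 250 bases before each start in RefSeq's promoter table for GRCm38.p6, read on both strands, and 23 of the 28 immediate early genes had an entry. The cAMP response element TGACGTCA was found in the windows of 3 of them (13%), against 2.7% of 12124 tested genes with an entry. The E-box CACGTG was in 6 (26.1%, against 8.92%), and neither the AP-1 motif TGANTCA (6.08% of all) nor the Ets motif CCGGAAGT (5.78%) was in any. Those 3 are shown 5′ to 3′ because they include Btg2, the only 1 of 4 called members with an entry that holds it, and both genes described just above. Capitals mark the element, and in Dusp1 also an E-box. The windows are chr1:134079156-134079405 for Btg2, chr17:26508473-26508722 for Dusp1 and chr7:45526269-45526518 for Ppp1r15a, all on the minus strand.
Btg2: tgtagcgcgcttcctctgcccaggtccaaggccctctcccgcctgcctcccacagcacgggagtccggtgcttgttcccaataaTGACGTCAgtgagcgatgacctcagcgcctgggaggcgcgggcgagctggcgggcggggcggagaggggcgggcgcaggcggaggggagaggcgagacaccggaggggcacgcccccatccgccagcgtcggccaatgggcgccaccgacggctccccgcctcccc
Dusp1: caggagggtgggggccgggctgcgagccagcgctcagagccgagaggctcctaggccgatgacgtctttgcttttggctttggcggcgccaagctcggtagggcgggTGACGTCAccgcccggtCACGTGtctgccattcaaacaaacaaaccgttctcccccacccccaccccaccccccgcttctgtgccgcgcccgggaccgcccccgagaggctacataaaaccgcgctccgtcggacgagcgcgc
Ppp1r15a: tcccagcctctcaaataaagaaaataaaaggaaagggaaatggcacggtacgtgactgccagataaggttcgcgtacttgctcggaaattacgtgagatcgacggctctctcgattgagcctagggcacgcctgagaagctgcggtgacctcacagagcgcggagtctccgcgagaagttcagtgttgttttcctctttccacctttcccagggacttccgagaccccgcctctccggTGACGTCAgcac

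The same letters were counted over the genes with a called difference. The AP-1 motif was in 4.33% of the promoters of genes with the higher effect in liver and 5.86% of those with the lower, against 6.08% of all. The corresponding shares were 1.97%, 1.95% and 2.7% for the cAMP response element, 8.27%, 8.68% and 8.92% for the E-box, and 5.91%, 3.47% and 5.78% for the Ets motif. Among the called lower genes with the larger fitted effect in spleen, 10 of 81 promoters (12.3%) held the E-box. A match is a stretch of letters and not a bound site.

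**Figure D4:**
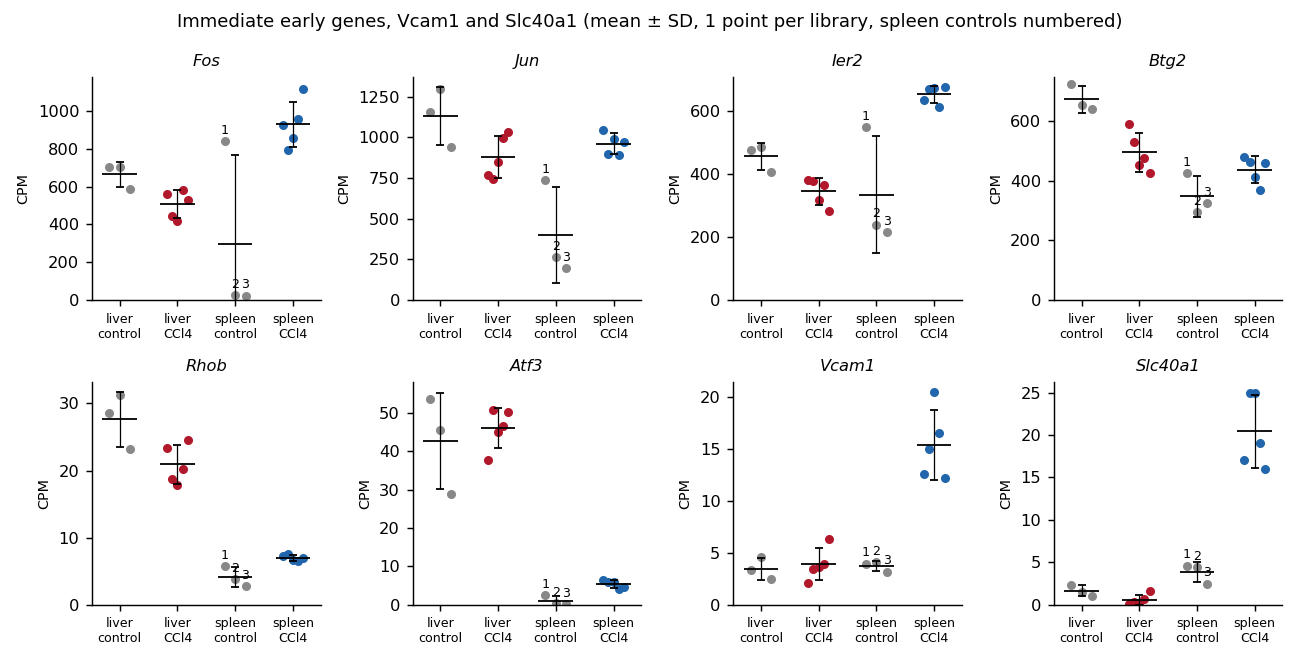
CPM of 6 immediate early genes, Vcam1 and Slc40a1, 1 point per library, with mean and SD, and the spleen controls numbered 1 to 3. Spleen controls 2 and 3 lie far below control 1 for Fos, Jun and Ier2, whereas all 3 spleen controls lie together for Vcam1 and Slc40a1, below the 5 spleen CCl4 libraries.

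Slc40a1 and Vcam1 were higher in every spleen CCl4 library than in any spleen control, without such a split among the controls. Slc40a1, the iron exporter ferroportin, which red pulp macrophages express strongly, was at 4.61, 4.39 and 2.5 CPM in spleen controls and 17.1, 25, 24.9, 19.1 and 16 CPM in spleen CCl4 libraries. In liver it was at 2.35, 1.45 and 1.08 CPM and 0.0799, 0.355, 0.0913, 0.661 and 1.58 CPM. The liver groups overlapped. The log2 effects were 2.41 in spleen (adjusted p = 0.0544) and -1.62 in liver (adjusted p = 0.0868), neither of them called, and their difference of -4.04 (SE 0.89, adjusted p = 0.00567) was the largest negative one named. Vcam1, an adhesion ligand that macrophages and stromal cells carry, was at 3.96, 4.08 and 3.18 CPM in spleen controls and 12.6, 15, 20.5, 16.5 and 12.2 CPM with CCl4, and at 2.13 to 6.36 CPM in liver (difference -1.87, SE 0.47, adjusted p = 0.016). Macrophage transcripts moved with them. The 16 macrophage and Kupffer markers summed to 20.9 to 25.4 CPM in spleen controls and 59.5 to 117 CPM in spleen CCl4 libraries, against 10.6 to 45.7 and 9.86 to 44.5 CPM in liver, and C1qa was at 0.923 to 1.16 CPM and 4.11 to 7.69 CPM in spleen and at most 0.711 CPM in liver. Vsig4 was listed at 0 in all 8 spleen Treg libraries and Clec4f lay at most at 0.0314 CPM there. None of the 16 had a called difference of its own, and their part in the Slc40a1 and Vcam1 results was not tested. Without the 4 spleen controls the log2 difference of Slc40a1 was -3.77 (adjusted p = 0.143), and Vcam1 was not called (adjusted p = 0.179).

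Rasd1, a Ras-like protein induced by glucocorticoids, and Fzd5, a Wnt receptor, were likewise lower in spleen controls 2 and 3 than in control 1. Rasd1 was at 2.89, 0.875 and 0.461 CPM in spleen controls and 4.75 to 10.1 CPM with CCl4 (log2 difference -2.53, SE 0.72, adjusted p = 0.0353). Fzd5 was at 2.71, 0.648 and 0.437 CPM and 5.07 to 7.02 CPM (difference -2.35, SE 0.58, adjusted p = 0.0135). Both lost the call without the 4 spleen controls, at adjusted p of 0.159 and 0.239, and Rasd1 was called in 9 of the 16 fits with 1 library left out. Cdkn1a, the cell cycle inhibitor p21, rose in spleen (log2 effect 1.67, and 0.04 in liver; difference -1.63, adjusted p = 0.0242, and 0.565 without the 4 spleen controls).

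Markers of other cells had called differences mainly in 2 lists. Of 14 neutrophil and monocyte markers, 4 had a called difference, all lower in liver (S100a8, S100a9, Ltf and Ngp), against 3.46% of all genes, and the list summed to 28.6 to 128 CPM in spleen CCl4 libraries against 24.3 to 33.1 CPM in spleen controls and 26.4 to 49.2 CPM in liver. Mmp9 made up 21.9 to 40.2 CPM of these sums in every library, and Retnlg was listed at 0 in the 3 spleen controls. Ngp, a neutrophil granule protein, was at 30.7, 9.9, 38.4 and 15.9 CPM in spleen CCl4 libraries 2 to 5 and at 0.0324 CPM in library 1; liver control 1 held 5.06 CPM and no other Treg library more than 0.24 CPM. Library 1 of the spleen CCl4 group thus lay at the level of most other libraries. Without liver control 1, S100a8 was still called (adjusted p = 0.0213), and Ltf, S100a9 and Ngp were not (adjusted p = 0.055, 0.297 and 1). Of 11 pancreatic markers, 4 had a called difference, all lower in liver, against 3.46% of all genes. Amy2a5, an amylase, was at 422 CPM in liver control 1 and at most 2.39 CPM in any other Treg library. Without liver control 1 none of Amy2a5, Prss2, Try5 and Cpb1 was called, at adjusted p between 0.206 and 0.978. Fitted fold changes of such genes, most of whose libraries are near 0, are not given. Of 10 endothelial markers 3 were called lower, among them Pecam1 by 0.55, a gene that T cells also express. Of 10 dendritic and of 11 NK and NKT markers 1 each was called lower. These counts too stand against 3.46% of all genes. No B cell, CD8 T, erythroid, hepatocyte, macrophage, stellate or platelet marker was called. The 7 erythroid markers measured nevertheless summed to 5.21 to 11.5 CPM in spleen controls and 16.5 to 77.6 CPM with CCl4, without overlap, and to 7.07 to 93.2 CPM and 10.4 to 66.8 CPM in liver. The part of these transcripts in other results was not tested.

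A few genes moved in opposite directions with both effects called, but in the fit without the 4 spleen controls the spleen calls were lost, as for all genes. Phf13, a reader of histone H3 methylation, was at 52.8, 52 and 61.8 CPM in liver controls and 43.9, 41.9, 36.3, 40.8 and 35.3 CPM with CCl4, and at 30.7, 28.3 and 27.6 CPM and 55.5, 52.3, 45.9, 47.6 and 50 CPM in spleen. It fell in liver and rose in spleen, with no overlap in either (effects -0.48 and 0.80, difference -1.28, SE 0.21, adjusted p = 0.000252, and 0.000634 without the 4 spleen controls). D17Wsu92e (effects -0.38 and 0.48) and Gna13, a G protein that limits T cell migration (effects -0.30 and 0.35), had the same arrangement, with differences of -0.95 (adjusted p = 0.00342) and -0.57 (adjusted p = 0.0504) without the 4 spleen controls. Ngp was the remaining gene that fell in liver and rose in spleen by the test, with the levels given above.

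Hist1h4n, a replication-dependent histone H4 gene, had the reverse. It was at 11.5, 8.34 and 8.62 CPM in liver controls and 17.4, 14.6, 15.8, 18.8 and 15.1 CPM with CCl4, and at 14.2, 10.9 and 14 CPM and 5.89, 6.43, 7.39, 4.77 and 9.18 CPM in spleen. It rose in liver and fell in spleen without overlap (effects 0.78 and -0.95, difference 1.73, SE 0.27, adjusted p = 0.000165, and 0.00342 without the 4 spleen controls). Of 21 clustered histone genes, Hist1h4n and Hist1h1e, a linker histone, had a called difference, both higher in liver, against 2.02% of all genes, and the median was 0.68 (liver 0.23, spleen -0.73). In spleen 4 of the 21 fell and in liver 1 rose, against 0.42% and 7.55% of all genes. Hist1h1e was at 15.9, 19.5 and 19.7 CPM in spleen controls and 7.17, 8.09, 9.55, 9.65 and 9.11 CPM with CCl4, with overlapping liver groups (difference 1.33, SE 0.26, adjusted p = 0.00217). In Tconv the same list had a median of 1.23 with 2 genes called, against 0.0874% of all genes. Histone genes are near-identical copies whose transcripts mostly lack poly(A) tails, so their counts are uncertain. Of 27 cell cycle genes 1 was called higher and 2 lower, against 2.02% and 3.46% of all genes, the median was -0.33, and Mki67 lay at 178 to 199 and 111 to 165 CPM in liver.

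Most lipid genes had no called difference. Of 20 fatty acid genes, 3 had one, all higher in liver, against 2.02% of all genes. Plin2, the coat protein of lipid droplets, was at 58.5, 56.3 and 46 CPM in liver controls and 208, 243, 268, 251 and 265 CPM with CCl4, and at 21.9, 28.3 and 21.7 CPM and 31.2, 31.4, 26.1, 42.1 and 28.9 CPM in spleen. Only in liver did the groups stand apart (log2 difference 1.79, SE 0.25, adjusted p = 4.73e-05). Acadl and Acadvl, dehydrogenases of fatty acid oxidation, differed by 0.56 and 0.57 (adjusted p = 0.00446 and 0.0184). Of 22 cholesterol genes, 4 had a called difference, all lower in liver, against 3.46% of all genes: Mvk, Fdps, Srebf2 and Insig1, an enzyme pair of the mevalonate pathway, its master regulator and the inhibitor of that regulator. Mvk was at 15.5, 21.2 and 22.3 CPM in liver controls and 6.79 to 10.8 CPM with CCl4, and at 12.4 to 15.5 and 10.8 to 14.5 CPM in spleen (difference -1.08, SE 0.27, adjusted p = 0.0123). Of 16 glycolysis genes Pfkp alone was called, lower by 0.58, and of 18 respiratory chain genes Sdha alone, higher by 0.34.

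Adhesion and homing receptors went both ways. Of 14 integrins and adhesion genes 2 were called higher and 4 lower, against 2.02% and 3.46% of all genes. Itga4 and Itgav, the alpha 4 and alpha V integrin chains, were higher by 0.73 and 0.78; Itgav ran from 290 to 320 CPM in liver controls and 522 to 757 CPM with CCl4, and from 63.5 to 72.6 and 79.7 to 92.1 CPM in spleen. Itgb1 and Itga6, which pair as a laminin receptor, were lower by 1.04 and 0.92 on the log2 scale, with Itgb1 at 896 to 1008 CPM in liver controls, 408 to 549 CPM with CCl4 and 409 to 553 CPM in spleen. Of 16 chemokine and lipid attractant receptors, Cxcr6, which holds T cells in liver, was higher by 1.80 (SE 0.48, adjusted p = 0.0232), from 27, 42.7 and 31.7 CPM to 75.3, 123, 116, 133 and 157 CPM in liver and at 4.92 to 10.6 CPM in spleen. S1pr4 and Ccr10 were lower, by 0.67 and 1.38, so that 1 of the 16 was higher and 2 were lower, against the same shares. Cxcr6 and Ccr10 were called in 13 and 10 of the 16 fits with 1 library left out.

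Signalling genes were called in small numbers, and the counts below stand against 2.02% of all genes called higher and 3.46% called lower. Of 16 genes of common gamma chain cytokine signalling, 3 were lower: Bcl2, the survival factor, by 1.37 (adjusted p = 0.00037), Socs3 by 0.75 and Stat5b by 0.71, and these 3 were called in all 16 fits with 1 library left out. Prkcq, the protein kinase C of the T cell receptor synapse, was the only 1 of 18 receptor signalling genes called, with a difference of -0.77 (SE 0.11, adjusted p = 5.08e-05). Il6ra among 12 Th17 genes differed by -0.84, and Slamf6 and Sh2d1a among 10 follicular genes, a receptor and its adaptor, by -0.95 and -0.82. Relb and Nfkb2, partners in the noncanonical NF-kB pathway, were called lower among 19 but only in 9 and 8 of the 16 fits with 1 library left out. Klrk1 and Klrd1 among 16 Th1 and cytotoxic genes and Hspa5 among 16 chaperones were called lower. Klrk1 and Klrd1 lay at most at 0.875 CPM in any Treg library. Dbp among 16 clock genes (called in 3 of the 16 fits) and Ddit4 among 12 hypoxia genes were called higher and complete the called members. Of 13 EGFR ligands and other growth factors none was called.

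**Figure D5:**
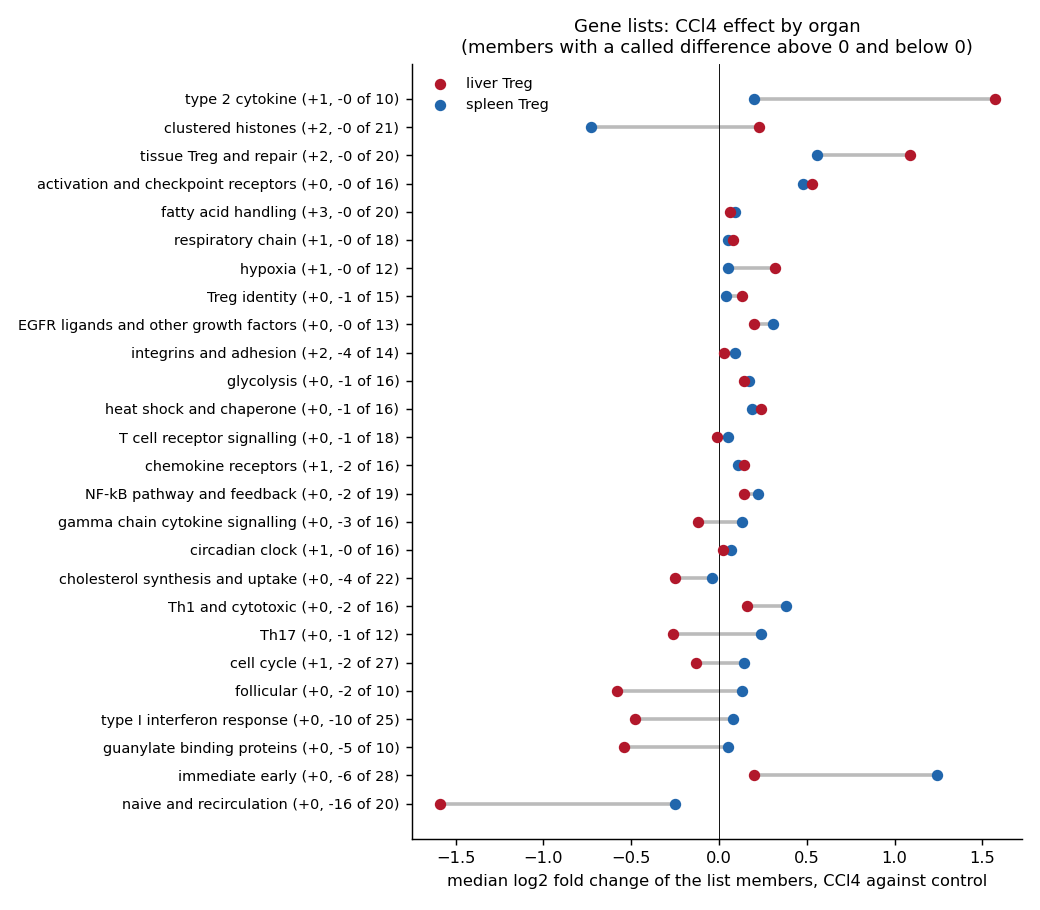
Median log2 fold change of CCl4 against control over the members of each of 26 gene lists in liver Treg (red) and spleen Treg (blue), ordered by the median difference. Labels give how many measured members had a called difference above and below 0. The largest distances are those of the naive list (-1.59 and -0.25), the type 2 list, the immediate early list and the histones.

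The same difference between organs was then computed for Tconv, with Tconv libraries of their own, to see where Treg departed from it. In Tconv, 15 of 17159 genes were called (0.0874%). The difference between both cell types, tested as a three-way contrast, was called for 53 genes (0.309%). The median Tconv difference of the 346 genes was 0.124 and that of the 594 was -0.205, against -0.012 over all genes, with the Treg sign in 232 of 346 and 500 of 594. The three-way contrast holds the same Treg libraries as the result above, so it does not count as separate evidence for it.

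Tcf7 illustrates the distance. In Tconv its mean was 1680 ± 101 CPM (SD, n = 3) in liver controls and 1557 ± 200 (n = 5) with CCl4, and 2396 ± 216 (n = 3) and 2498 ± 142 (n = 5) in spleen. The Tconv difference was -0.17 and the three-way value -1.28 (SE 0.18, adjusted p = 0.000373). Ramp1 in Tconv was at 49.7 ± 5.03 CPM and 43.1 ± 6.37 in liver and 66.5 ± 5.67 and 83.4 ± 8.53 in spleen, with a three-way value of 2.34 (SE 0.30, adjusted p = 0.000252). Pcyt1a was at 22.6 ± 1.09 and 18.2 ± 2.91 CPM in liver Tconv and at 16.5 ± 1.04 and 18.4 ± 2.15 in spleen Tconv (three-way 2.36, SE 0.34, adjusted p = 0.000502). In these 3 genes the Tconv effects were small or of the other sign.

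Gata3 was at 174 ± 8.45 and 190 ± 9.25 CPM in liver Tconv (three-way 1.24, SE 0.23, adjusted p = 0.00964), and Afp, at 10.2 ± 2.23 and 8.33 ± 3.77 CPM there, had a three-way value of 3.52 (SE 0.55, adjusted p = 0.00106). On the naive list, 5 of 20 members were called in the three-way contrast, all lower in Treg, against 0.309% of all genes. None of the interferon, guanylate binding protein or immediate early genes was called, nor was Cyp11a1 (adjusted p = 0.399). With 0.309% of all genes called, lists of that size could hold no called gene by their size alone. The immediate early list had a Tconv median of -0.62. The three-way count was 11 without the 4 spleen controls.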

How the data were processed

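Sorted Treg and Tconv were sequenced as bulk RNA, per the labels from cDNA made with a Clontech low-input kit and Nextera XT. The submitters' processing notes name bcl2fastq 2.19, kallisto 0.44.0, DESeq2 without a version, and GRCm38.p6. Which annotation release and strand setting were used is not given in the sources used here, so reads of a gene and its antisense partner cannot be told apart. For 118489 transcripts, the deposited tables hold an estimated count and a TPM value, per the file headers; the authors obtained TPM by division by effective length.

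Estimated counts were summed to 35968 genes through GENCODE M21 transcript names (98.5% matched; 1761 transcripts with 0.684% to 0.823% of counts were left out) and rounded. edgeR 4.0.16 in R 4.3.3 kept 17159 genes (filterByExpr), scaled by TMM and fitted 8 group means to all 32 libraries by quasi-likelihood, with 24 residual degrees of freedom. CPM are TMM-scaled and not divided by gene length, so levels are compared within a gene only. SE is the absolute log2 value divided by the square root of F and is approximate. P-values were adjusted over all tested genes by Benjamini and Hochberg's method. The Areg test used log2 CPM with a prior count of 0.5, and permuted treatment within each organ. The procedure was tested on simulated data. Figures were drawn with matplotlib 3.10.9.

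Genes were named by rule: the 12 largest differences in each direction among called genes with at least 5 CPM and no overlap of CCl4 and control in at least 1 organ, the 8 smallest p, a short set including Areg and Foxp3, up to 4 members of each list and genes called in opposite directions. Other list members, such as Dusp1, Id2 and Ccr7, were named after their values were seen, and some members are not reported here. The members of the comparison and the 38 lists were chosen with earlier results of these data known. Alternatives were DESeq2 1.42.0, limma-voom (limma 3.58.1), other scaling and filters, replicate blocks, fewer libraries, and for Areg linear CPM, a prior of 2 and deposited TPM. Promoters come from RefSeq's table for GRCm38.p6. Intervals and p-values cover these libraries only.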

Additional observations from a re-analysis of the deposited data

Results flagged for a closer look

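Of 90 groups of 5 libraries examined for an outlying library among the named genes, 2 were singled out, and chance flags about 1 in 20 such groups. In spleen Treg CCl4 libraries, the highest value of Fzd5 was 7.02 CPM (library 1) against at most 5.58 CPM in the other 4. The highest value of Penk was 143 CPM (library 4) against at most 91.1 CPM. Library 4 was also highest in that group for some genes picked after their values were seen. These were Lag3 (33.6 against at most 12.5 CPM), Pdcd1 (239 against at most 150 CPM) and Angptl2 (133 against at most 60.5 CPM).

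The CCl4 effect in Treg differed between liver and spleen for 940 genes, and this difference itself differed between Treg and Tconv for 53 genes, both by edgeR's quasi-likelihood test. Among the named genes, the Treg minus Tconv log2 value was above 0 for Cxcl3 (5.22), Afp (3.52), Evi5 (3.25), Specc1 (2.57), Hpgds (2.55), Pcyt1a (2.36), Ramp1 (2.34) and Gata3 (1.24). It was below 0 for St8sia1 (-2.04), Nsg2 (-1.78), Nod1 (-1.67), Evl (-1.33), Tcf7 (-1.28), Ms4a4b (-1.24) and Ehd3 (-1.09). Tconv levels of Cxcl3 were at most 1.6 CPM in any group's mean, so its value is poorly determined.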

How the results depend on the processing

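The comparison between organs in Treg gave 940 genes; DESeq2 called 1445, limma-voom 1065, a mean of at least 5 CPM 1105, no filter 747, DESeq2's size factors 983 and the Treg libraries alone 985. Leaving out 1 Treg library gave 573 to 984 genes, the lowest without spleen control 3, and leaving out the 4 spleen controls numbered 2 and 3 gave 330. The liver effect ranged from 1778 to 2561 genes with 1 library left out. The spleen effect (202 genes) was 374 by limma-voom, 506 by DESeq2 and 9 to 342 with 1 library left out; it was 9 and 10 without spleen controls 2 and 3, 342 without control 1, and 130 and 83 without spleen CCl4 libraries 2 and 4. Without the 4 spleen controls edgeR called 0 genes in spleen, with 1321 at an unadjusted p under 0.05. For Tconv (15 genes) DESeq2 called 160, the fit of Tconv libraries alone 1, the fit without the 4 spleen controls 5, and fits without 1 Treg library 6 to 19, the lowest without spleen Treg CCl4 library 2. For the three-way contrast (53) a mean of at least 5 CPM gave 86, DESeq2 194, the fit without the 4 spleen controls 11, and fits with 1 library left out 38 to 68.

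Whether libraries with the same number were pairs was not settled, and the main fit used no pairing. Over 9871 genes, 4 of 8 liver and spleen pairs had a correlation of deviations over 0.1, and 10 of 16 libraries correlated best with their own number. Both libraries did so for control numbers 1, 2 and 3 and CCl4 number 4 (correlations 0.14, 0.13, 0.10 and 0.14). For CCl4 numbers 1 and 5 neither did (-0.07 each). With a replicate block by sample number the Treg comparison called 998 genes, and with a replicate block by treatment and number 1111; the second gave 58 genes for Tconv and 83 for the three-way contrast.

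Areg was -0.92 in the permutation test, -1.55 to -0.45 with 1 library left out, 0.34 without spleen controls 2 and 3, and 54 CPM on the linear scale. In the fit without the 4 spleen controls, Areg (0.29), Foxp3 (-0.09), Il10 (0.70) and Ctla4 (0.06) turned sign, none being called in either fit, and Il10 ran from -1.17 to 0.06 with 1 library left out, being 0.06 and 0.00 without spleen Treg control 2 or 3. Of 45 named genes, 26 kept direction and call in that fit and 15 lost the call. That fit has fewer samples, and the cause was not tested beyond that. With 3 controls per organ, small differences were not detectable.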

Other observations

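Id3, Pparg and Bhlhe40 changed with CCl4 in both organs, each by the test in both with all libraries; without the 4 spleen controls numbered 2 and 3 the spleen calls were lost, since edgeR then called 0 genes in spleen (1321 at an unadjusted p under 0.05). Bhlhe40, a transcription factor of tissue lymphocytes, was at 403, 466 and 357 CPM in liver controls and 726 to 1064 CPM with CCl4, and at 80.7, 29 and 29.6 CPM and 152 to 209 CPM in spleen. Its log2 effects were 1.20 and 1.86, and the sign of their difference turned from -0.66 to 0.14 in that fit. Nfil3, a partner factor of tissue Treg, rose in spleen with all libraries, from 86.6, 39.9 and 45.1 CPM to 105 to 156 CPM, and lay at 368 to 510 CPM in liver controls and 463 to 519 CPM in liver CCl4 libraries. Fgl2, a secreted suppressor protein of Treg, rose in liver from 112, 170 and 149 CPM to 485 to 584 CPM, with spleen at 49.2 to 85 CPM, and its log2 difference of 1.66 had an SE of 0.58 (edgeR adjusted p = 0.0917).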
